A study of Mus musculus with 6 samples.

Results

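Integrins, laminins and the linker proteins of the basement membrane were read in the lungs of mice after naphthalene, wild type and null for Falcor. The genes were chosen by a rule on their names, with earlier results of these data known. They were every gene whose symbol begins with Itga, Itgb, Lama, Lamb or Lamc (the laminin symbols followed by a digit), together with Nid1, Nid2, Hspg2 and Agrn. Of 16537 genes measured by a probe set with a single gene symbol, 42 met this rule. They comprised 7 integrin chains of leukocytes, 1 of platelets, 16 of other tissues, 10 laminin chains, 4 linkers and 4 genes that carry integrin in their name without being receptor chains. Itgad and Itga10 were not analysed here, and 3 probe sets that carried a second gene symbol beside one of these genes were left out.

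Both groups had received naphthalene, which the club cells of the airway turn into a toxic product and which thereby injures the airway epithelium, and no untreated lung is part of the comparison. The 3 wild-type samples and the 3 Falcor-null samples, null for the long non-coding RNA gene Falcor, shared the strain label CD1_C57Bl6_mix. Their labels gave 28, 29 and 30 days after naphthalene for wild type and 31, 32 and 33 days for Falcor-null, so that labelled day and genotype cannot be told apart. The sources used here do not state age, how the null allele was made or whether samples came from separate animals. The p-values therefore reflect the spread between samples that may be technical repeats.

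Integrins are receptors made of 1 alpha and 1 beta chain that hold cells to the matrix or to other cells. Leukocyte integrins, above all those built on Itgb2 and Itgb7, let white blood cells arrest on vessel walls, enter tissue and stay there. In lung epithelium, endothelium, fibroblasts and muscle, integrins built mainly on Itgb1, Itgb4 and the partners of Itgav bind laminin, collagen, fibronectin or latent TGF-beta. Laminins are trimers of an alpha, a beta and a gamma chain that form a sheet under epithelium and around vessels and muscle, and nidogens, perlecan (Hspg2) and agrin (Agrn) tie that sheet to collagen IV and to cells.

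The targeted gene did not check the labels. The Falcor probe set (symbol 9030622O22Rik) read 4.69, 5.01 and 5.45 in wild type and 6.82, 6.34 and 6.32 in Falcor-null, higher in the latter (limma adjusted p 0.0423). Whether its probes fall inside the deleted sequence is unknown, so each direction below rests on the labels. All values are log2 signals on a scale where the array medians lay between 6.69 and 6.74. A level is comparable between arrays for 1 gene but not between genes. Lung epithelium and endothelium were present on all 6 arrays by their markers, with Sftpc of alveolar type 2 cells at 13.59 to 13.61 and Pecam1 of endothelium at 11.15 to 11.39.

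None of the 42 genes passed an adjusted p of 0.05 over all genes in limma, where 92 of 16537 genes (0.556%) did. Leaving out wild type replicates 1, 2 and 3 in turn gave totals of 89, 26 and 49, and leaving out Falcor-null replicates 1, 2 and 3 gave 24, 18 and 37. Beneath that threshold the classes lay on opposite sides. All 7 leukocyte chains read lower on the arrays labelled Falcor-null, and all 14 laminins and linkers read higher. The 16 tissue integrins lay closer to 0, with 12 higher and 4 lower. The median log2 difference, Falcor-null minus wild type, was -0.55 for leukocyte chains, 0.26 for laminins and linkers and 0.11 for tissue integrins, against 0.0026 over all genes, of which 49.2% were lower. The tissue integrin median was 0.056 without wild type replicate 1 and 0.064 without Falcor-null replicate 2. At an unadjusted p of 0.05, 21 of the 42 genes passed, 8 lower and 13 higher, where 7.65% of all genes were lower and 6.11% higher at that level.

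**Figure D1:**
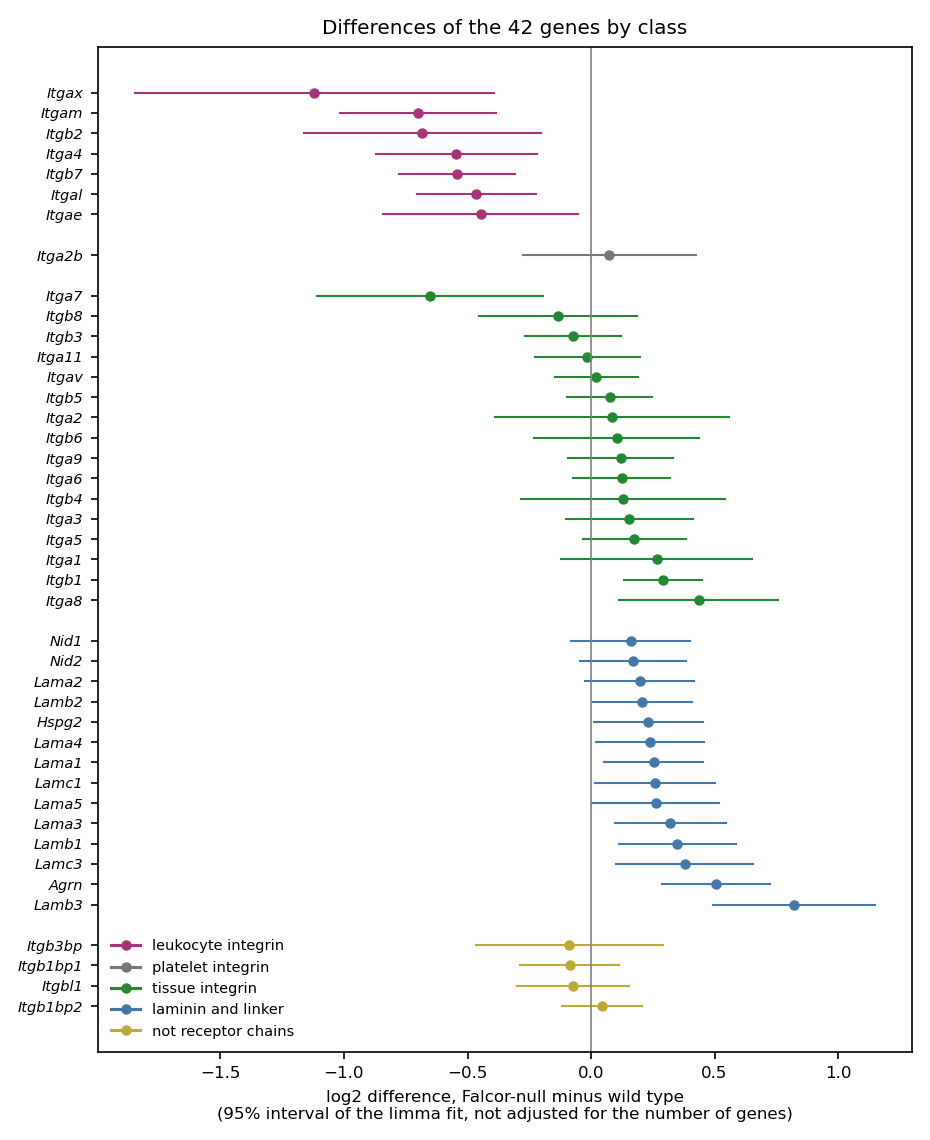
Log2 difference (horizontal axis, Falcor-null minus wild type) of each of the 42 genes with its 95% interval from the limma fit, 3 arrays per group, coloured by class and ordered by size within it. The 7 leukocyte chains lie between -1.12 and -0.45, and the 14 laminins and linkers between 0.16 and 0.82.

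Among the leukocyte integrins, the 7 chains differed by -0.45 to -1.12 on the log2 scale, and all 7 had an unadjusted p under 0.05 in limma, against 7.65% of all genes that were lower at that level. For 6 of the 7 every array labelled Falcor-null lay below every wild-type array, as for 10.6% of all genes. None passed the adjusted threshold, their adjusted p-values running from 0.0793 to 0.303. In whole lung RNA, fewer cells of a type and less RNA per cell cannot be told apart. The 7 chains share cells and partners and are not independent of one another.

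Promoter windows show what sequence lies at the start of these genes, since the chains read lower together. RefSeq promoters of GRCm38.p6, 250 bases before to 50 after the start, were at hand for 28 of the 42 genes and for 4 leukocyte chains, printed 5′ to 3′ on the gene's strand. Capitals mark every match on either strand to a PU.1-type motif (GAGGAAG), a Runx-type motif (TGTGGT), a forkhead motif (TGTTTAC) or an AP-1-type motif (TGANTCA). PU.1 and Runx factors drive genes of blood cells, and the forkhead motif is of the kind bound by Foxa2, which the series title names. The windows are Itgam at chr7:128062390-128062689 (plus strand), Itgax at chr7:128129300-128129599 (plus strand), Itga4 at chr2:79255176-79255475 (plus strand) and Itgb7 at chr15:102231886-102232185 (minus strand).
Itgam: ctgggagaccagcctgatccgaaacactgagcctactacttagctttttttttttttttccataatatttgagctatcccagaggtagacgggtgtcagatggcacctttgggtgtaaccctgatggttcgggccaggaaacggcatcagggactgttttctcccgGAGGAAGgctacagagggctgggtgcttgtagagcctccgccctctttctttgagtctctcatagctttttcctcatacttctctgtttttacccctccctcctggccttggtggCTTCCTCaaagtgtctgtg
Itgax: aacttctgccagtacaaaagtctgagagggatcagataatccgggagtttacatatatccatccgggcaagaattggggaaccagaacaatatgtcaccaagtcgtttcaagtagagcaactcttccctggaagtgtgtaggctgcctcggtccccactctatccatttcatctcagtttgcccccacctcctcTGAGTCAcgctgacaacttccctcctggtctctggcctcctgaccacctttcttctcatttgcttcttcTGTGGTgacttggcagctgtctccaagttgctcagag
Itga4: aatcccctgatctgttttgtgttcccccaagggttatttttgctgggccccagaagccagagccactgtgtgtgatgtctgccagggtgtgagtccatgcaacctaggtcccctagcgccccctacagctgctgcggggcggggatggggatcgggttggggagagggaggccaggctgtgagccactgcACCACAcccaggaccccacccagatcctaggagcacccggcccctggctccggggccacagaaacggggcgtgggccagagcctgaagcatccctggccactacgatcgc
Itgb7: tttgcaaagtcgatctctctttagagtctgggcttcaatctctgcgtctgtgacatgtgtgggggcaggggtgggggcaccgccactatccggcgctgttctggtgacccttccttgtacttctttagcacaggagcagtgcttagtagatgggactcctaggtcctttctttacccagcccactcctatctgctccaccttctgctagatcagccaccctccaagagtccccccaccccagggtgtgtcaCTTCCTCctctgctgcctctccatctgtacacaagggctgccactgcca

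The PU.1-type letters stood in Itgam at 84 bases before and 32 bases after the start and in Itgb7 at 2 bases after it, counted to the first base of the match. They occur in 13.6% of all 32851 promoter windows and in 9 of the 32 windows of the genes described here, among them Lama2, Nid1 and Lamb3, which encode basement membrane proteins. The Runx-type letters stood in Itgax and Itga4 and in 3 of the 32 windows, against 16.8% of all windows. The AP-1-type letters stood in Itgax and in 3 of the 32 windows, against 7.81% of all. The forkhead letters stood in none of the 32 windows and in 3.65% of all windows. A match describes letters only, and their absence says nothing of the factor.

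Itgb2 and the alpha chains that pair with it are carried by neutrophils, macrophages, dendritic cells and T cells. Itgb2 itself read 10.12, 10.73 and 10.34 in wild type and 9.40, 9.67 and 10.07 in Falcor-null. The groups stood apart by only 0.05, between the lowest wild-type and the highest Falcor-null array, and the log2 difference was -0.68 (SE 0.21, adjusted p 0.212). Itgam, the alpha chain of the complement and fibrinogen receptor of neutrophils and macrophages, read 8.06, 8.45 and 8.36 in wild type and 7.59, 7.76 and 7.40 in Falcor-null. Its groups were 0.29 apart, with a log2 difference of -0.70 (SE 0.13, adjusted p 0.0854).

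Itgax, carried by alveolar macrophages and dendritic cells, had the largest difference of the 42 genes and a wide spread. It read 9.19, 10.21 and 9.63 in wild type and 8.27, 8.26 and 9.14 in Falcor-null, so that Falcor-null replicate 3 lay 0.054 below the lowest wild-type array. The difference of -1.12 (SE 0.31, adjusted p 0.181) was 2.17-fold and ran from -1.41 to -0.86 over the alternative settings. Itgal, the chain by which T cells and other leukocytes bind Icam1, varied less, at 8.18, 8.02 and 8.34 against 7.70, 7.63 and 7.82. Its groups were 0.20 apart and differed by -0.46 (SE 0.10, adjusted p 0.110).

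The chains of lymphocyte homing also read lower. Itgb7, which pairs with Itga4 to bind Madcam1 and with Itgae to bind E-cadherin, read 7.35, 7.09 and 7.14 in wild type and 6.61, 6.56 and 6.77 in Falcor-null. Its 2 groups were the farthest apart of any leukocyte chain, by 0.32, and it had the smallest p of them (log2 difference -0.54, SE 0.10, adjusted p 0.0793). Itga4, whose partners are Itgb7 and Itgb1, read 8.45, 8.04 and 8.12 against 7.71, 7.81 and 7.45. The groups did not overlap, and the difference was -0.55 (SE 0.14, adjusted p 0.156). Itgae, the chain of T cells and dendritic cells resident in epithelium, was the single leukocyte chain whose groups overlapped, by 0.01. It read 7.17, 6.60 and 6.92 against 6.19, 6.54 and 6.61, a difference of -0.45 (SE 0.17, adjusted p 0.303).

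The platelet chain Itga2b, the partner of Itgb3 in the fibrinogen receptor, read 5.91, 5.52 and 6.10 against 6.002, 5.80 and 5.94. Its groups overlapped fully, the difference of 0.07 had a 95% interval of -0.28 to 0.42 (adjusted p 0.879), and it turned to -0.090 without wild type replicate 2. It read near the dim end of the table, where the lowest mean of any gene was 4.34, and a difference there can be compressed.

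**Figure D2:**
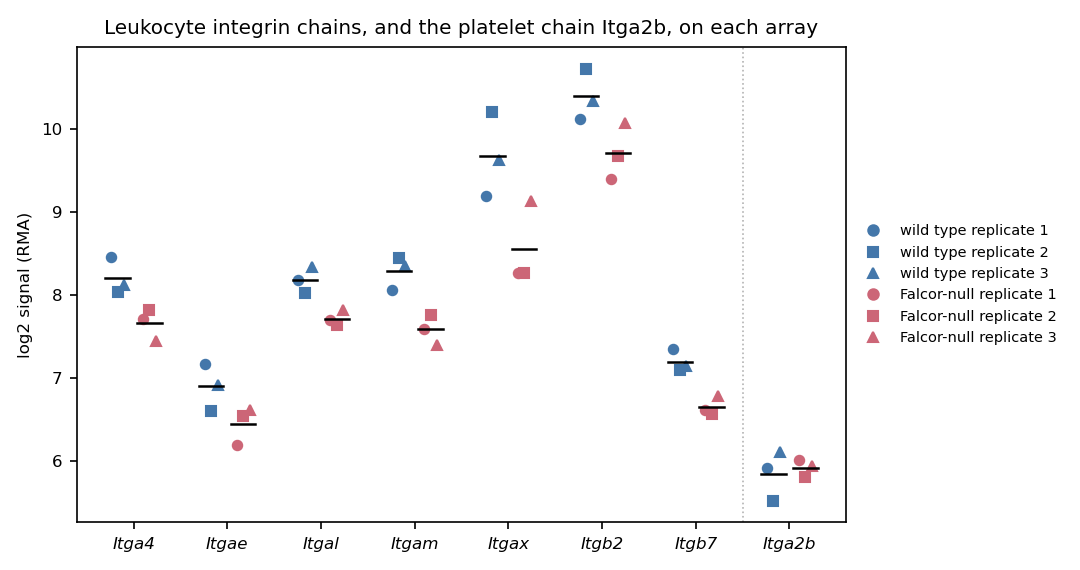
Log2 signal (vertical axis) of the 7 leukocyte integrin chains and, right of the dotted line, the platelet chain Itga2b on the 3 wild-type arrays (blue) and the 3 arrays labelled Falcor-null (red); bars are group means and levels compare within a gene only. In 6 of the 7 leukocyte chains the red points lie wholly below the blue ones, with Itgae overlapping by 0.01.

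Markers of leukocytes moved with these chains. All 5 pan-leukocyte genes were lower, and their summed linear signal was 2542 to 3239 on the wild-type arrays and 1700 to 1965 on the arrays labelled Falcor-null. The pan-leukocyte phosphatase Ptprc differed by -0.43 (adjusted p 0.0987), a size like that of Itgal, and the tetraspanin Cd53 by -0.95 (adjusted p 0.0939). Of all the leukocyte lists, only 3 T cell genes, 1 B cell gene and 2 plasma cell genes passed the adjusted threshold in limma. Over all genes, 0.556% passed. The plasma cell gene Jchain had the smallest adjusted p of these lists (-2.78, adjusted p 0.000311). The T cell list was lower in 9 of 9 genes (sum 1315 to 1580 against 770 to 856), the neutrophil list in 7 of 7 (1158 to 2968 against 747 to 866), the alveolar macrophage list in 8 of 8 (10063 to 14116 against 6131 to 8162) and the monocyte and interstitial macrophage list in 8 of 9 (2977 to 3143 against 2244 to 2453). B cell genes were lower in 5 of 5 (625 to 777 against 419 to 455) and plasma cell genes in 4 of 5 (3109 to 3594 against 1243 to 1514). The sums of these lists did not overlap between the groups, but a sum of linear signals leans on its brightest genes. Taken singly, 5 of 5 pan-leukocyte, 8 of 9 T cell, 6 of 7 neutrophil and 4 of 8 alveolar macrophage genes did not overlap. The same held for 5 of 9 monocyte and interstitial macrophage, 4 of 5 B cell and 4 of 5 plasma cell genes. Over all genes, 10.6% were lower without overlap.

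Other leukocyte lists did overlap. NK cell genes were lower in 4 of 4 (sum 355 to 477 against 303 to 388), dendritic cell genes in 4 of 6 (979 to 1109 against 969 to 1163) and platelet genes in 3 of 5 (523 to 1242 against 510 to 942). The platelet list includes Itga2b itself. The brightest dendritic cell gene, Cd209a, was higher (0.24, limma adjusted p 0.496). In 2 of the 6 dendritic cell genes the groups did not overlap, both lower, as for 10.6% of all genes. Wild type replicate 3 stood high in the neutrophil list. With that array left out, the 7 leukocyte chains remained lower, with a median of -0.59. What part the number of leukocytes had in the chains' levels was not tested.

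**Figure D3:**
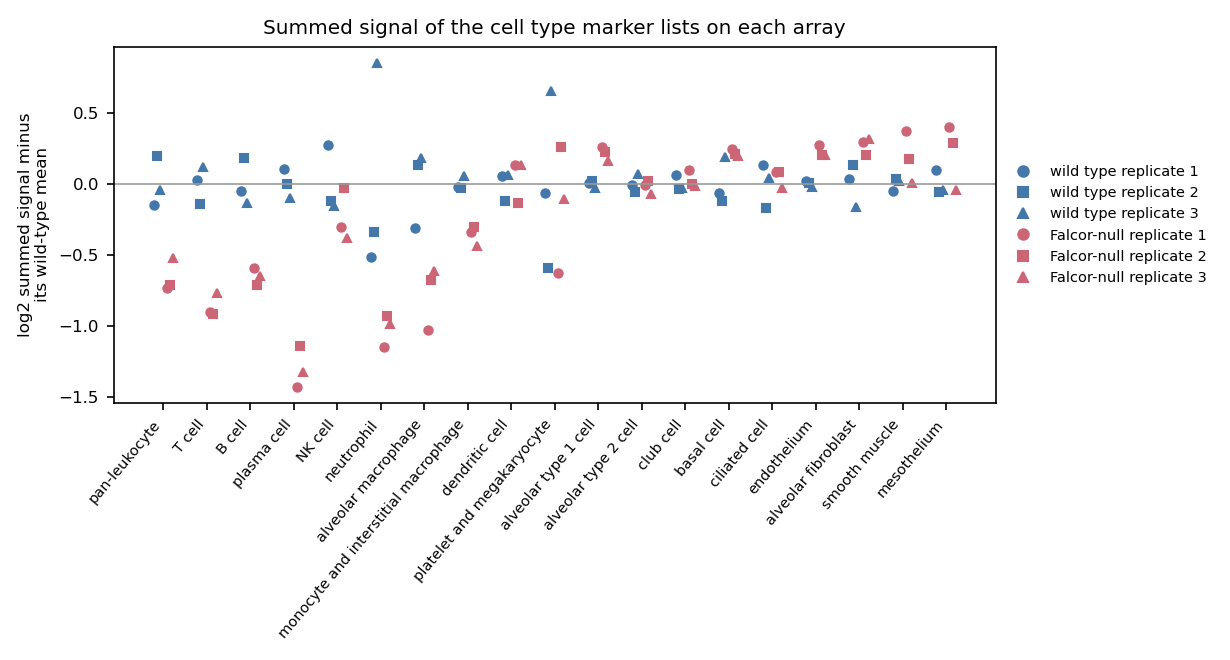
Summed linear signal of each cell type marker list (horizontal axis) on each array, as log2 relative to the mean of the 3 wild-type arrays (vertical axis), wild type in blue and Falcor-null in red. Lists of T, B and plasma cells, neutrophils and macrophages lie lower on all 3 arrays labelled Falcor-null, those of alveolar type 1 cells, basal cells, endothelium and alveolar fibroblasts lie higher, and alveolar type 2 and club cell lists overlap.

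The laminin chains all read higher on the arrays labelled Falcor-null. Of the 14 laminins and linkers, 11 had an unadjusted p under 0.05 in limma, where 6.11% of all genes were higher at that level, and 12 had every Falcor-null array above every wild-type array, as did 8.96% of all genes. Several of these gaps were small, being under 0.05 in 7 of the 12. None passed the adjusted threshold, with adjusted p-values from 0.0689 to 0.545. The count of 11 depended on single arrays. It became 6 when wild type replicate 1 or 3 or Falcor-null replicate 2 was left out, and 7 when Falcor-null replicate 1 was.

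Lamb3, the beta chain of the laminin that anchors epithelium through hemidesmosomes, had the largest difference of the laminins and the smallest p of the 42 genes. It read 7.95, 7.66 and 8.14 in wild type and 8.76, 8.89 and 8.56 in Falcor-null. The groups were 0.42 apart, and the difference of 0.82 (SE 0.14) was 1.77-fold, with a 95% interval of 0.49 to 1.15 and an adjusted p of 0.0689. With an intensity trend in the variance model the adjusted p was 0.0387 and Lamb3 passed.

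Lama3, the alpha chain of the same laminin, read 9.50, 9.54 and 9.61 against 9.91, 10.00 and 9.70. Its groups did not overlap, but its difference of 0.32 (SE 0.10, adjusted p 0.212) was smaller than that of Lamb3, the difference between the 2 genes not being tested. Of the receptor chains for this laminin on epithelial cells, Itga6, Itga3 and Itgb4 did not stand apart between the groups. Itgb1, the beta chain shared by most matrix receptors, did, as given below. Itga6 read 9.20, 9.27 and 9.31 against 9.38, 9.49 and 9.28 (difference 0.13, adjusted p 0.563). Itga3 read 9.64, 9.63 and 9.67 against 9.82, 9.99 and 9.58, with Falcor-null replicate 3 below all wild-type arrays (difference 0.16, adjusted p 0.584). Itgb4, the partner of Itga6 in hemidesmosomes, read 6.85, 6.46 and 6.59 against 6.86, 7.03 and 6.40, and its difference of 0.13 (95% interval -0.28 to 0.54, adjusted p 0.806) was -0.0068 without Falcor-null replicate 2.

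The other alpha chains of laminin lay within a narrow band of 0.20 to 0.26. Lama1, abundant in embryonic rather than adult basement membranes and dim here, read 5.20, 5.15 and 5.33 against 5.45, 5.58 and 5.40 (difference 0.25, SE 0.09, adjusted p 0.259). Lama4, the chain of endothelial and muscle basement membranes, read 8.94, 9.10 and 8.87 against 9.22, 9.10 and 9.30, and its groups were separated by only 0.0037 (difference 0.24, SE 0.09, adjusted p 0.323). Lama5, the chief alpha chain under adult lung epithelium, read 8.42, 8.26 and 8.40 against 8.42, 8.80 and 8.65, with a gap of 0.0033 (difference 0.26, SE 0.11, adjusted p 0.357). For both, the groups in effect touched. Lama2, the chain of muscle and mesenchymal basement membranes, differed by 0.20 (adjusted p 0.418).

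The beta and gamma chains read higher as well. Lamb1 read 8.97, 9.05 and 8.74 against 9.21, 9.24 and 9.36 (difference 0.35, SE 0.10, adjusted p 0.199), and Lamb2, its counterpart in vessels and muscle, read 9.16, 8.99 and 9.02 against 9.36, 9.24 and 9.19 (difference 0.21, SE 0.09, adjusted p 0.347). Neither gene's groups overlapped. Lamc1, the gamma chain of most laminins, read 9.54, 9.75 and 9.50 against 9.80, 10.00 and 9.76, with wild type replicate 2 just beneath the lowest Falcor-null array (difference 0.26, SE 0.10, adjusted p 0.329). The rarer Lamc3 read 6.61, 6.45 and 6.42 against 6.65, 6.91 and 7.05 (difference 0.38, SE 0.12, adjusted p 0.226).

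Of the linkers, agrin stood out by size. Agrn, a heparan sulfate proteoglycan that binds laminin and dystroglycan, read 9.06, 9.13 and 9.13 in wild type and 9.44, 9.71 and 9.68 in Falcor-null. The groups were 0.31 apart, and the difference of 0.51 (SE 0.09) was 1.42-fold with an adjusted p of 0.0793, or 0.0393 with an intensity trend, under which it passed. Hspg2, the proteoglycan perlecan, read 9.31, 9.37 and 9.22 against 9.63, 9.58 and 9.38, groups that were 0.0083 apart (difference 0.23, SE 0.09, adjusted p 0.334).

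The nidogens, which bridge laminin and collagen IV, had overlapping groups. Nid1 read 10.16, 10.37 and 10.09 against 10.27, 10.49 and 10.34 (difference 0.16, adjusted p 0.545). Its second, dimmer probe set read 9.14, 9.24 and 9.08 against 9.35, 9.59 and 9.38, where the groups did not overlap (difference 0.29, adjusted p 0.245 over all probe sets). Nid2 read 6.88, 6.75 and 6.89 against 7.11, 7.05 and 6.87 (difference 0.17, adjusted p 0.468).

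**Figure D4:**
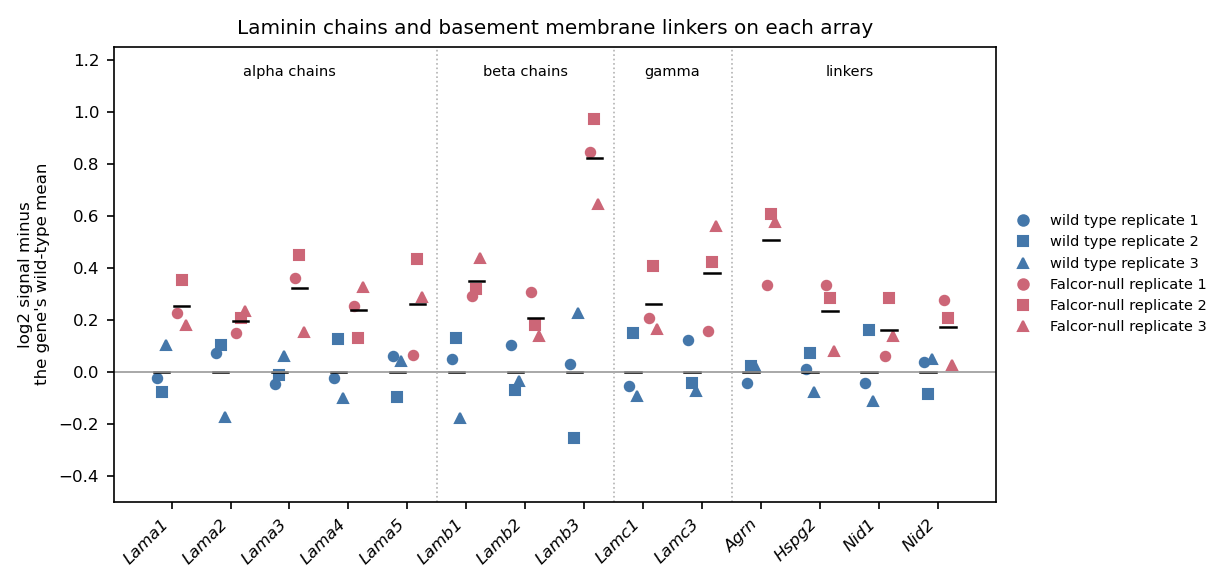
Log2 signal of the 10 laminin chains and 4 linkers on each array, minus the gene's mean over the 3 wild-type arrays (vertical axis), wild type in blue and Falcor-null in red; bars are group means. Lamb3 and Agrn have the widest gaps between the groups, 0.42 and 0.31, and Nid1 and Nid2 overlap.

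Marker lists of some cells other than leukocytes were higher, while the sums of others overlapped between the groups. All 6 alveolar type 1 cell genes were higher on the arrays labelled Falcor-null, with a summed signal of 13137 to 13621 in wild type and 14956 to 16064 in Falcor-null. Endothelial genes were higher in 7 of 7 (11335 to 11695 against 13279 to 13922), alveolar fibroblast genes in 5 of 6 (8871 to 10877 against 11423 to 12347) and basal cell genes in 3 of 3, at the dim end (82.9 to 102.5 against 103.0 to 106.7). Smooth muscle genes were higher in 6 of 6 with sums that overlapped (3148 to 3338 against 3273 to 4206), as did those of mesothelium, higher in 4 of 4 (1017 to 1132 against 1025 to 1397). The alveolar type 2 cell list (4 of 6 lower, 38819 to 42373 against 38481 to 41051), the club cell list (1 of 5 lower, 24683 to 26366 against 25025 to 27036) and the ciliated cell list (2 of 4 lower, 1899 to 2344 against 2097 to 2267) overlapped. No gene of these lists passed the adjusted threshold in limma, where 0.556% of all genes did. The smallest adjusted p was 0.101, in the endothelial list. Taken singly, 5 of 6 alveolar type 1 cell, 5 of 7 endothelial, 3 of 6 alveolar fibroblast and 1 of 3 basal cell genes did not overlap. The same held for 1 of 4 mesothelial and 1 of 5 club cell genes, and for 0 of 6 smooth muscle, 0 of 6 alveolar type 2 and 0 of 4 ciliated cell genes. Over all genes, 8.96% were higher without overlap. What part these cells had in the laminin values was not tested.

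Tissue integrins differed little. Of the 16 chains, 3 had an unadjusted p under 0.05 in limma, 2 higher (background 6.11%) and 1 lower (background 7.65%), and in these 3 alone the groups did not overlap. The remaining 13 lay between -0.13 and 0.27. Itgb1, the beta chain shared by most matrix receptors and present in nearly all cells, had tight groups, at 10.73, 10.74 and 10.72 in wild type against 11.04, 11.02 and 10.99 in Falcor-null. Its groups were 0.26 apart, and the difference of 0.29 (SE 0.07) was 1.22-fold, with an adjusted p of 0.123. Itga4, a leukocyte partner of Itgb1, read lower, as given above.

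Itga8, the alpha chain that pairs with Itgb1 on fibroblasts and smooth muscle to bind nephronectin, read 10.41, 10.23 and 10.04 against 10.80, 10.41 and 10.78. The groups nearly touched, 0.0030 apart, and differed by 0.44 (SE 0.14, adjusted p 0.228). Its ligand Npnt, also a marker of alveolar fibroblasts, differed by 0.26 (adjusted p 0.367). Itga1, a collagen receptor chain, read 10.27, 10.22 and 10.24 against 10.91, 10.23 and 10.38, where Falcor-null replicate 1 stood high (difference 0.27, adjusted p 0.534, and 0.065 without that array).

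Itga7, a laminin receptor chain of muscle, was the tissue integrin that read lower on every array labelled Falcor-null. It read 7.80, 7.85 and 8.54 in wild type and 7.49, 7.50 and 7.25 in Falcor-null, groups that were 0.31 apart and differed by -0.65 (SE 0.20, adjusted p 0.212). Wild type replicate 3 was the highest array, and without it the difference was -0.42. This was the opposite direction to the 6 smooth muscle markers.

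**Figure D5:**
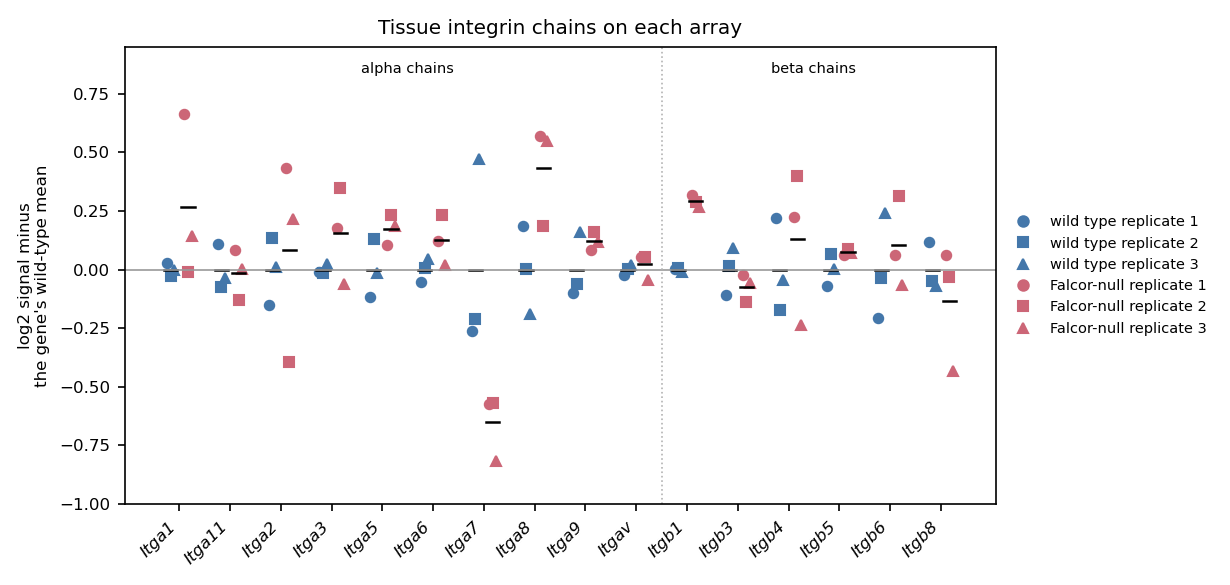
Log2 signal of the 10 alpha and 6 beta tissue integrin chains on each array, minus the gene's mean over the 3 wild-type arrays (vertical axis), wild type in blue and Falcor-null in red; bars are group means. The groups stand apart in Itga7 (lower in Falcor-null) and in Itga8 and Itgb1 (higher), and overlap in the other 13.

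The chains listed next, from receptors that activate latent TGF-beta or bind fibronectin and vitronectin, overlapped between the groups. Itgb1, which most matrix receptors share, Itga8 and Itga4 did not, as given above. Itgb6, the epithelial partner of Itgav, read 8.10, 8.27 and 8.55 against 8.37, 8.62 and 8.24 (difference 0.10, 95% interval -0.23 to 0.44, adjusted p 0.806), with a difference of -0.0021 without Falcor-null replicate 2. Itgav differed by 0.02 (95% interval -0.15 to 0.19, adjusted p 0.929). Itgb5 read 8.91, 9.05 and 8.98 against 9.05, 9.07 and 9.05 (difference 0.08, adjusted p 0.713), and Itgb8 read 6.17, 6.01 and 5.98 against 6.12, 6.02 and 5.62 (difference -0.13, adjusted p 0.728, and 0.014 without Falcor-null replicate 3). Itgb3, shared by the vitronectin receptor and the platelet receptor, read 7.74, 7.87 and 7.94 against 7.83, 7.71 and 7.79 (difference -0.07, adjusted p 0.763). Itga5, the fibronectin receptor chain, read 8.03, 8.28 and 8.14 against 8.26, 8.38 and 8.34 (difference 0.17, adjusted p 0.445).

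The other tissue chains gave small values. Itga9, which binds tenascin C, differed by 0.12 (adjusted p 0.611). The collagen receptor chains Itga2 and Itga11 differed by 0.08 (95% interval -0.39 to 0.56) and -0.02 (95% interval -0.23 to 0.20). Itga2 turned to -0.090 without Falcor-null replicate 1. Itga11 turned to 0.013 with arrays centred on their medians, to 0.039 without wild type replicate 1 and to 0.042 if Falcor-null replicate 2 was left out.

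The 4 genes with integrin in their name that are not receptor chains overlapped between the groups in every case. They were Itgb1bp1, whose product binds the tail of Itgb1 (difference -0.09), the muscle chaperone Itgb1bp2 (0.04), the centromere protein gene Itgb3bp (-0.09) and Itgbl1 (-0.07). Their adjusted p-values lay between 0.722 and 0.866. Itgb3bp turned to 0.060 without Falcor-null replicate 1 and Itgbl1 to 0.0065 without Falcor-null replicate 2.

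Other proteins of the basement membrane were mostly higher. Of 24 further genes, 20 were higher and 4 lower, with a median difference of 0.24, none passed the adjusted threshold and 9 had an unadjusted p under 0.05, all higher (6.11% of all genes). The collagen IV chain genes Col4a2 (0.50, adjusted p 0.0742) and Col4a5 (0.47, adjusted p 0.0956) had the smallest p. Col4a1, the partner of Col4a2, named after its values were seen, read 9.24, 9.67 and 9.50 against 9.82, 10.01 and 10.10 (difference 0.51, adjusted p 0.149).

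Among 19 measured ligands of integrins outside the basement membrane, 13 were higher and 6 lower, with a median of 0.12 and none passing. At an unadjusted p under 0.05 in limma, 6 were higher (6.11% of all genes) and 2 lower (7.65% of all genes). The 2 with the smallest p were Icam4 (0.32, adjusted p 0.160), a red cell adhesion molecule, and Fgg, the gamma chain of fibrinogen. Fgg read 7.95, 8.40 and 8.70 in wild type and 4.70, 7.57 and 4.81 in Falcor-null, a difference of -2.66 (adjusted p 0.167) in which Falcor-null replicate 2 lay far above the other 2. The vascular ligands Icam1 (0.13) and Vcam1 (0.00055), which leukocyte integrins bind, had adjusted p-values of 0.741 and 0.999. Icam2, of the same list, was higher on every array labelled Falcor-null (0.20, adjusted p 0.270). These genes were chosen after their values were seen.

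Adaptors and regulators of integrins lay on both sides of 0. Of 27 measured, among them Itgb1bp1 of the 42 genes, 13 were higher and 14 lower, with a median of -0.08 and none passing. Of the 9 with an unadjusted p under 0.05, 8 were lower (7.65% of all genes) and 1 higher (6.11% of all genes). The 2 with the smallest p were Apbb1ip, the leukocyte protein that recruits talin to Rap1 (-0.70, adjusted p 0.0854), and the kinase Ptk2b (-0.54, adjusted p 0.113). Pairs of relatives, chosen after their values were seen, were set side by side. The blood cell kindlin Fermt3 read 7.39, 7.77 and 7.75 against 7.25, 7.01 and 7.35 (-0.43, adjusted p 0.226), while the kindlin of other tissues, Fermt2, differed by 0.16 (adjusted p 0.416). The blood cell parvin Parvg differed by -0.43 (adjusted p 0.160) and the widely expressed Parva by 0.06 (adjusted p 0.809). The differences between these pairs were not tested. Other relatives in the list were Fermt1 (-0.10, limma adjusted p 0.854) and Parvb (0.00075, adjusted p 0.998). Outside these families, Actn1 (-0.20, adjusted p 0.322) and Sharpin (-0.28, adjusted p 0.232) were also lower on every array labelled Falcor-null.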

How the data were processed

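Expression was measured on single-channel arrays with biotin-labelled RNA from whole lung, 3 samples per group, grouped by title. The authors deposited 1 column of log2 signals per array. Per the submitters' processing notes, the tools were oligo, RMA and limma, with no version stated. RMA makes array distributions alike, though they were not identical here, so a shift common to most genes would be largely removed. No source used here gives the annotation build. Detection calls were not used, and 3 arrays per group limit the precision.

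Of 24173 probe sets, 17476 had 1 gene symbol, 1308 several and 5389 none, and the first were used. The brightest probe set stood for each of 16537 genes. Groups were compared with lmFit and eBayes (limma 3.58.1, R 4.3.3), two-sided, with Benjamini-Hochberg adjustment over all 16537 genes, and tested on simulated data first. An exact permutation test of 3 against 3 arrays cannot go below 0.1.

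The genes, roles and the 22 pathway and marker lists were chosen with earlier results of these data known. Values on every array were given for the leukocyte and platelet chains and for up to 4 genes with the smallest p in each other role, and some others were added after their values were seen. The sample titles do not say whether equal replicate numbers paired the samples, and the main fit used no pairing. Same-numbered arrays' deviations from their group means correlated across genes at 0.02, -0.0025 and -0.08. With 3 arrays per group, such values cannot settle whether samples were paired. Alternatives were a replicate block, other scaling, variance models, array weights, a filter on dim probe sets, other use of probe sets and leaving out each array. Plots used matplotlib 3.10.9 (Python 3.11.15).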

Additional observations from a re-analysis of the deposited data

How the results depend on the processing

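Of 626 values of single genes under alternatives, 614 kept their direction and their side of the threshold. The 2 that newly passed were Lamb3 (0.82, adjusted p 0.0387) and Agrn (0.51, adjusted p 0.0393) with an intensity trend, where the count of the 42 genes passing was 2 in place of 0. The 10 that reversed were of differences near 0. Itga11 gave 0.013 with arrays centred on their medians. With 1 array left out, differences ran from -0.090 to 0.20 for Itga2b, -0.064 to 0.042 for Itga11, -0.090 to 0.32 for Itga2, -0.0068 to 0.31 for Itgb4, -0.0021 to 0.22 for Itgb6, -0.23 to 0.014 for Itgb8, -0.28 to 0.060 for Itgb3bp and -0.12 to 0.0065 for Itgbl1. The cause was not tested. With the replicate block, 32 genes of all passed in place of 92, and no gene described here passed. Leaving out 1 array gave 18 to 89 genes, with fewer samples in the fit. The median of the tissue integrins was 0.15 after a second quantile normalization and 0.056 to 0.15 with 1 array left out. The 7 leukocyte chains were lower and the laminins and linkers higher (14 of 14, or 13 of 13 without dim probe sets) in every alternative run. The number of laminins and linkers at an unadjusted p under 0.05 was 6 to 10 with 1 array left out, a count added after the data were seen. Scaling moved the median of all genes by no more than 0.03. Signal over background is unknown for dim genes such as Lama1, Itga2b, Itga11 and Itgb8.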

Other observations

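The Falcor-null arrays were spread widely in 3 matrix and plasma genes that integrins bind or that border the basement membrane, chosen after their values were seen. Tnc, the matrix protein tenascin C that appears during tissue repair, read 7.26, 7.70 and 7.46 in wild type and 8.56, 8.79 and 7.47 in Falcor-null, where the last array lay within the wild-type range (log2 difference 0.80, limma adjusted p 0.330). Fbln2, a fibulin of basement membranes and elastic fibres, had the same high pair, at 6.93, 6.49 and 7.04 against 7.48, 7.90 and 7.04 (0.65, adjusted p 0.275). Fga, the alpha chain of fibrinogen, read 5.51, 5.81 and 6.43 against 3.94, 5.44 and 4.72 (-1.21, adjusted p 0.226), with Falcor-null replicate 2 the highest of its group, as it was for Fgg.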
